A study of Mus musculus with 3 samples.

Results

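The Hox genes encode homeodomain transcription factors and lie in 4 clusters, HoxA to HoxD. They were selected by symbol, as every gene named Hox with a cluster letter from a to d and a number that had a probe set annotated with that gene alone. This gave 34 genes, measured by 42 probe sets, among 17097 genes with such a probe set on the same arrays. A gene with several probe sets was represented by the one with the highest mean. Other Hox genes were not analysed here.

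RNA came from mammary cells of female Lgr5-IRES-GFP mouse embryos at embryonic day 14, in which green fluorescent protein is made from the Lgr5 locus. Epidermis and mammary gland were digested together, and cells with high CD49f, the integrin alpha 6 chain of basal epithelium, and high Lgr5 reporter signal were sorted. All 3 samples belonged to this 1 group, and the female embryos of each litter were pooled for 1 Affymetrix array. The labels do not say which mammary buds along the trunk were taken, whether thoracic or inguinal, nor which array had 813 and which 2000 sorted cells. Without a second group, the comparison the design allowed was of each gene with a background on the same array.

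As background, Hox genes are arranged along each cluster in paralogue numbers from 1 to 13, and genes of different clusters with the same number descend from 1 ancestral gene. Low numbers are switched on early and far forward in the embryo, high numbers late and towards the tail, so that the set of Hox genes on in a cell records its level along the body axis. Mammary buds form along a line between forelimb and hindlimb. Hoxc8 is known for its part in placing the mammary placodes, and the group 9 genes for their part in the growth of the mammary gland in pregnancy.

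The call of a Hox gene as above background or not changed between neighbours at several places, 4 in HoxA and 2 in HoxD. A change that both clusters shared was between groups 9 and 10. The promoters of these neighbours are shown because they stand at that shared change, with Hoxa9 and Hoxd9 above background and Hoxa10 and Hoxd10 not. They are RefSeq windows of GRCm38.p6, 250 bases before to 50 after the start of the gene, printed in the direction of transcription with CpG dinucleotides in capitals.
Hoxa9, chr6:52227321-52227620, minus strand: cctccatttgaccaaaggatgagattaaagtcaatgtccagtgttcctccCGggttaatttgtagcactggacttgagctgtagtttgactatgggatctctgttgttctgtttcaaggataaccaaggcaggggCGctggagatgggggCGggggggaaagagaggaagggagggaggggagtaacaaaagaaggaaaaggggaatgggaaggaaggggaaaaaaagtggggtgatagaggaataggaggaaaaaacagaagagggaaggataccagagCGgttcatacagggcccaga
Hoxa10, chr6:52234890-52235189, minus strand: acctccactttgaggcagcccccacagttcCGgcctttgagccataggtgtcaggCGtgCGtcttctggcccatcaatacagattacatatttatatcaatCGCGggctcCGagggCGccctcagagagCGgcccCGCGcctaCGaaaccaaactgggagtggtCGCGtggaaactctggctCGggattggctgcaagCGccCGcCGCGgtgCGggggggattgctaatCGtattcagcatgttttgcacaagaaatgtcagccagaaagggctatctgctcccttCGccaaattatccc
Hoxd9, chr2:74697513-74697812, plus strand: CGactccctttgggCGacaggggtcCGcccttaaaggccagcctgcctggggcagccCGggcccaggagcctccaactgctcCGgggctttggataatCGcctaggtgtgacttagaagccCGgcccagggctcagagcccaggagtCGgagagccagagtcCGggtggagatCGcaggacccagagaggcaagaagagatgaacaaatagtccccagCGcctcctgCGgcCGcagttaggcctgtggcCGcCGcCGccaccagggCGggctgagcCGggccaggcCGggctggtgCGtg
Hoxd10, chr2:74691641-74691940, plus strand: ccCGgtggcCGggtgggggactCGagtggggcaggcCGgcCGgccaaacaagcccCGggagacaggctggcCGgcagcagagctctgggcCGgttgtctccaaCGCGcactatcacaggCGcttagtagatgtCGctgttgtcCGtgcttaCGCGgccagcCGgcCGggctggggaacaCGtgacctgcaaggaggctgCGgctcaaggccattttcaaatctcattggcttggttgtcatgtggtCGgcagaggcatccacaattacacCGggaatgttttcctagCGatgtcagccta

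The Hoxa9 window held 4 CpG and the Hoxa10 window 21, whereas the Hoxd9 window held 20 and the Hoxd10 window 22. CpG content thus differed between these neighbours in HoxA and was close in HoxD. The table held a second start for Hoxa10, at chr6:52240805-52241104, with 12 CpG. In all, it held 23 windows for 21 of the 34 Hox genes, and their median was 14 CpG against 7 over all 32851 windows of the same length. The median GC content was 57.3% for Hox windows and 52.7% over all. The 8 windows of Hox genes above background had a median of 11 CpG (range 4 to 20), and the 15 of the others had 20 (range 4 to 45), so the ranges overlapped. The homeodomain core TAATTA, searched on both strands, was in 2 of 23 Hox windows (8.70%) and in 5.29% of all windows. Both of these Hox windows belonged to Hoxd11, the only one of the 21 genes with a match. The Pbx-Hox core TGATNNAT was in 4 Hox windows (17.4%) against 8.85% of all, and TATAAA in 4 (17.4%) against 13.62%. TAATTA reads the same on both strands, and 0 matches of different motifs overlapped in the Hox windows. These matches describe letters in a window and were not tied to the array values.

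Values are log2 expression per probe set. Chemosensory receptor genes, 74 in number, served as background, and the 95th percentile of their values set the threshold of each array, at 6.14, 6.17 and 5.99 on replicates 1, 2 and 3. A gene was called above background when its mean distance over this threshold passed limma's one-sided test with an adjusted p under 0.05 over all 17097 genes. Of the 34 Hox genes, 16 were above background (47.1%), against 55.1% of all genes (9426 of 17097), and 18 had an unadjusted p under 0.05. The median Hox gene lay 0.47 above the threshold and the median of all genes 0.78 above it. The Hox share was thus not over the share of all genes. A gene with several probe sets stood by its highest, and 5 of the 6 such Hox genes were called (83.3%). The comparison with all genes was not matched for the number of probe sets. By array, 17 Hox genes were over the threshold on all 3 arrays, 13 on none, and 4 on 1 or 2 of them.

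The count above background differed between the clusters. In HoxC, 5 of 6 measured genes were above background (83.3%) and in HoxB 6 of 10 (60%). In HoxA it was 3 of 9 (33.3%) and in HoxD 2 of 9 (22.2%). Over all genes the share was 55.1%, and that of HoxB was near it. The median distance from the threshold was 1.90 in HoxC, 0.77 in HoxB, -0.62 in HoxA and -0.60 in HoxD. Among 30 steps between measured neighbours of a cluster, the call changed at 11. In HoxC the call changed at 1 step, so among its measured genes the called ones formed 1 run from Hoxc4 to Hoxc10. No HoxC gene of groups 6, 11 or 12 was analysed here. Whether the run is broken between Hoxc5 and Hoxc8, or ends at Hoxc10, is therefore not known. The clusters were not tested against each other.

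**Figure D1:**
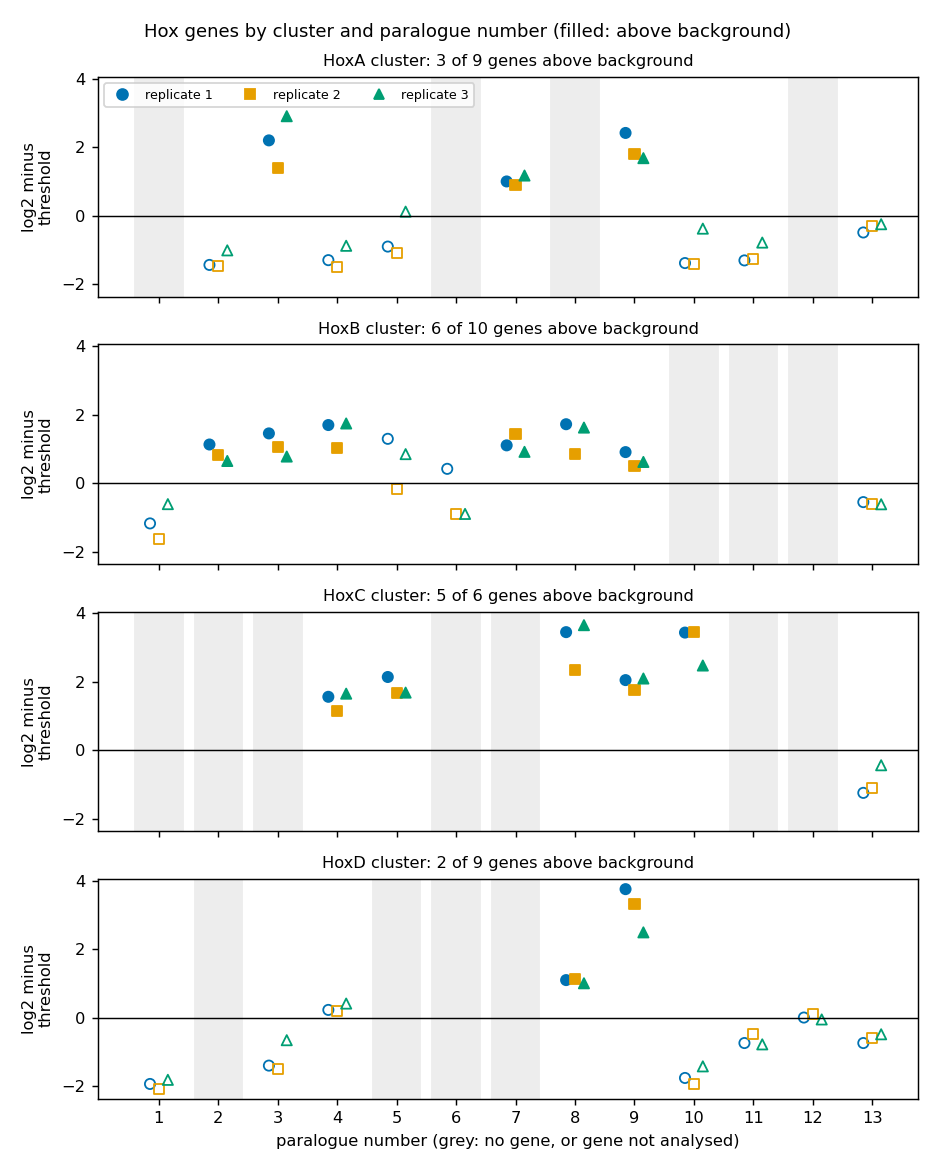
Log2 value minus the array's receptor threshold (y axis) for each Hox gene by paralogue number (x axis) in the 4 clusters, 1 symbol per replicate, filled where the gene was above background. Among measured genes, filled symbols run from group 4 to 10 in HoxC, stand at 8 and 9 in HoxD, and all genes of groups 11 to 13 are open.

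By paralogue number, 3 of 7 genes of groups 1 to 3 were above background (42.9%), against 55.1% of all genes. Of groups 4 to 8, 8 of 13 were (61.5%), and of groups 9 to 13, 5 of 14 (35.7%). Within these, the genes of groups 7, 8 and 9 were all above background, 9 of 9 measured. Of groups 10 to 13, 1 of 10 was, Hoxc10, and of groups 11 to 13, 0 of 7 by limma, with 0 at an unadjusted p under 0.05. The division at 7, 9 and 11 was chosen after the values were seen and is a description. With the stricter backgrounds described below, tissue-restricted genes and nonspecific controls, 2 and 4 of the 9 genes in groups 7 to 9 were called. Of all genes, 25.7% and 31.6% were. A gene not above background may still be transcribed at a level the probe set did not separate from the receptor genes.

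Among the anterior genes, of groups 1 to 3, Hoxa3 acts in the pharyngeal arches and neck organs. Its log2 values were 8.34, 7.56 and 8.89 on replicates 1, 2 and 3, a mean of 8.27 ± 0.67 (SD, n = 3) that lay 2.16 above the threshold (adjusted p = 0.00145). Hoxb2 and Hoxb3, which pattern the hindbrain, were also above the threshold on every array. Hoxb2 had 7.27, 7.0 and 6.63 (0.87 above the threshold, adjusted p = 0.00333). Hoxb3 had 7.59, 7.22 and 6.76 (1.09 above, adjusted p = 0.00249). Replicate 1 was the highest and replicate 3 the lowest for both, on the probe sets used. The other Hoxb3 probe set, under the threshold in the mean, had replicate 3 the highest (5.28, 4.99 and 6.04). The other anterior genes were under the threshold on all arrays. Hoxa2, which sets the identity of the second arch, had 4.71, 4.70 and 4.98. Hoxb1, a marker of rhombomere identity, had 4.97, 4.55 and 5.38. Hoxd1 and Hoxd3 had means of 4.16 ± 0.06 and 4.92 ± 0.36.

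The middle genes, of groups 4 to 8, pattern the neck and the thorax. Hoxc8, which specifies thoracic identity, had 9.59, 8.52 and 9.64 on the 3 arrays, 3.15 above the threshold in the mean (SD 0.63, adjusted p = 2.94e-04). Replicate 2 was the low array, and it was still 2.35 above its own threshold. Hoxb8 had 7.86, 7.02 and 7.61 (1.40 above, adjusted p = 0.00206), from a probe set whose name marks possible cross-hybridisation. Hoxd8 had 7.24, 7.30 and 6.99 (1.08 above, adjusted p = 8.22e-04), also from such a probe set. The 3 measured group 8 genes were thus all above background, but 2 of them rested on probe sets of that kind.

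In group 7, Hoxa7 had 7.14, 7.06 and 7.16, with the smallest SD of the 16 called Hox genes (0.05), and lay 1.02 above the threshold (adjusted p = 0.00121). Hoxb7 had 7.24, 7.61 and 6.90 (1.15 above, adjusted p = 0.00141). All arrays were above the threshold for both genes, and the highest array differed between them. Hoxb6, the measured gene of group 6, had 6.56, 5.27 and 5.09 (mean 0.46 under the threshold). Its replicate 1 was over the threshold and the other 2 were not.

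In groups 4 and 5, HoxB and HoxC members gave values above background. Hoxb4 had 7.84, 7.21 and 7.73 (1.49 above the threshold, adjusted p = 0.00111), Hoxc4 had 7.71, 7.33 and 7.64 (1.46 above, adjusted p = 6.47e-04), and Hoxc5 had 8.28, 7.85 and 7.67 (1.83 above, adjusted p = 3.14e-04). Replicate 2 was the lowest array for Hoxb4 and Hoxc4, and replicate 3 for the probe set used of Hoxc5. The other Hoxc5 probe set had 7.91, 7.13 and 8.06, with replicate 2 the lowest and replicate 3 the highest. Hoxb5 had 7.43, 6.001 and 6.83 and was not called (0.66 above the threshold, adjusted p = 0.0755). Its replicate 2 lay under the threshold and the other 2 arrays over it. Without replicate 2 it was 1.07 above and called (adjusted p = 0.00324), without replicate 1 it was 0.34 above (adjusted p = 0.248) and without replicate 3 it was 0.56 above (adjusted p = 0.0505). Hoxd4 had 6.37, 6.36 and 6.40, over the threshold on all arrays but by 0.28 in the mean (adjusted p = 0.0710). It was called without replicate 3 (0.21 above, adjusted p = 0.0238), and not without replicate 1 (0.30 above, adjusted p = 0.288) or replicate 2 (0.32 above, adjusted p = 0.261). With an array left out, limma's p-values leaned on the variance shared over all genes. They are not comparable with those of 3 arrays. In HoxA, Hoxa4 had 4.85, 4.68 and 5.11. Hoxa5, known for roles in the lung and the mammary epithelium, had 5.24, 5.09 and 6.11, of which replicate 3 was 0.12 over its threshold and the others under theirs.

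The posterior genes began with group 9, whose members in HoxA, HoxB and HoxD act together in the mammary gland. Hoxd9 had 9.89, 9.49 and 8.48 (mean 9.29 ± 0.73, SD, n = 3), 3.19 above the threshold (adjusted p = 2.26e-04). Hoxa9 had 8.56, 7.96 and 7.67 (1.96 above, adjusted p = 4.40e-04). Hoxb9 had 7.05, 6.68 and 6.60 (0.67 above, adjusted p = 0.00656). In these 3 genes the order of the arrays was the same, with replicate 1 the highest and replicate 3 the lowest. Hoxc9 had 8.19, 7.93 and 8.09 (SD 0.13, 1.97 above, adjusted p = 1.87e-04), with replicate 2 the lowest. Hoxb9 was the least firm of the group. Without replicate 1 it lay 0.56 above the threshold with an adjusted p of 0.0835, and with the 99th percentile of the receptor genes as the threshold it lay 0.30 above with an adjusted p of 0.0847.

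Hoxc10, a gene of the lumbar region and the hindlimb, had 9.58, 9.63 and 8.46 (mean 9.23 ± 0.66), 3.13 above the threshold (adjusted p = 1.78e-04). Replicate 3 was more than 1 log2 unit under the other 2, and all 3 arrays were over the threshold. Its group 10 relatives gave no such signal. Hoxa10, a gene of the hindlimb and the uterus, had 4.76, 4.77 and 5.61. Hoxd10 had 4.39, 4.24 and 4.57. On every array Hoxc10 was thus above the threshold and Hoxa10 and Hoxd10 were under it.

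The terminal genes, groups 11 to 13, pattern the distal limb, the tail and the urogenital tract. Hoxa11 had 4.84, 4.92 and 5.21, and Hoxd11 had 5.41, 5.69 and 5.21. Hoxd12 was the nearest to the threshold, with 6.15, 6.29 and 5.94 (0.02 above in the mean, adjusted p = 0.665). Of the 4 group 13 genes, Hoxa13, which acts in digits and the genital tubercle, had 5.65, 5.87 and 5.74, and Hoxd13 had 5.41, 5.59 and 5.51. Hoxb13 had 5.59, 5.57 and 5.37. Hoxc13, a regulator of hair keratins and nails, had 4.90, 5.07 and 5.56. None of these 4 was over the threshold on any array.

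For 6 Hox genes several probe sets were measured, and in 4 of them they fell on both sides of the threshold in the mean. The used probe set of Hoxa3 had a mean log2 value of 8.27, and the other 3 had 6.13, 5.56 and 4.57. The mean of its 4 probe sets was 0.25 above a threshold made in the same way (adjusted p = 0.219), so the Hoxa3 call rested on 1 probe set. For Hoxb3 the means were 7.19 and 5.43, and for Hoxb4 7.59 and 5.98. For Hoxd8 the probe set marked for cross-hybridisation had 7.18 and the unmarked one 5.97, which was 0.13 under the threshold. Without marked probe sets Hoxd8 was not called, and Hoxb8 had no other probe set. The 2 probe sets of Hoxc5 were both over the threshold on all arrays (means 7.93 and 7.70). Those of Hoxd13 were both under it (5.50 and 5.34).

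**Figure D2:**
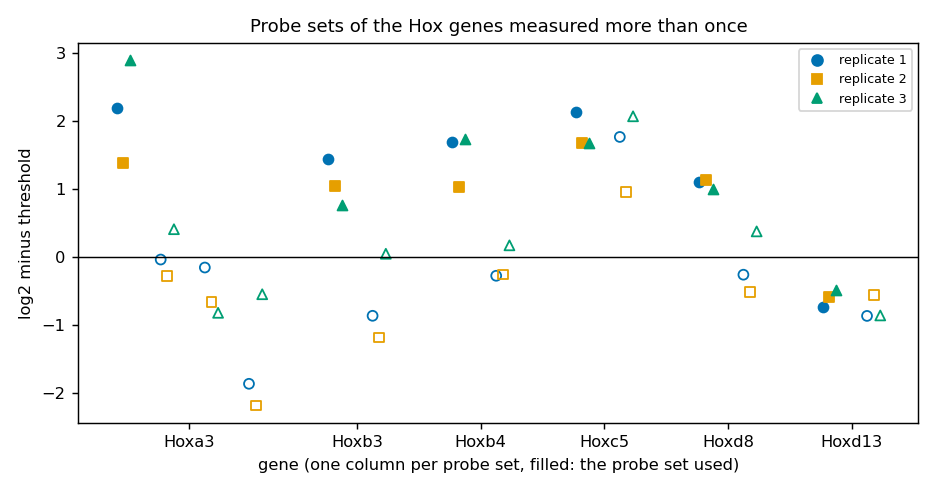
Log2 value minus the receptor threshold (y axis) of every probe set of the 6 Hox genes measured more than once, 1 column per probe set and 1 symbol per replicate, filled for the probe set used. For Hoxa3, Hoxb3, Hoxb4 and Hoxd8 the used probe set lies above the others, and for Hoxc5 both lie above 0.

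The number of Hox genes above background depended on where the threshold was set. With 38 genes restricted to unrelated tissues as background, 3 Hox genes were above it, against 25.7% of all genes. These were Hoxc8, Hoxc10 and Hoxd9, at 1.67, 1.64 and 1.71 over that threshold (adjusted p = 0.00647, 0.00435 and 0.00480 by limma). With the brightest of 23 nonspecific control probe sets, 7 were above it, against 31.6% of all genes. They were the same 3 with Hoxa3, Hoxa9, Hoxc5 and Hoxc9. Of the tissue-restricted genes, 11 of 38 were themselves above the receptor threshold. By limma, 0 of 10 HoxB genes were above either stricter threshold, with 0 at an unadjusted p under 0.05 for both. Counted over all settings, Hoxc8, Hoxc10 and Hoxd9 were above background in each one, and 16 Hox genes in none, with every measured gene of groups 11 to 13 among the latter.

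**Figure D3:**
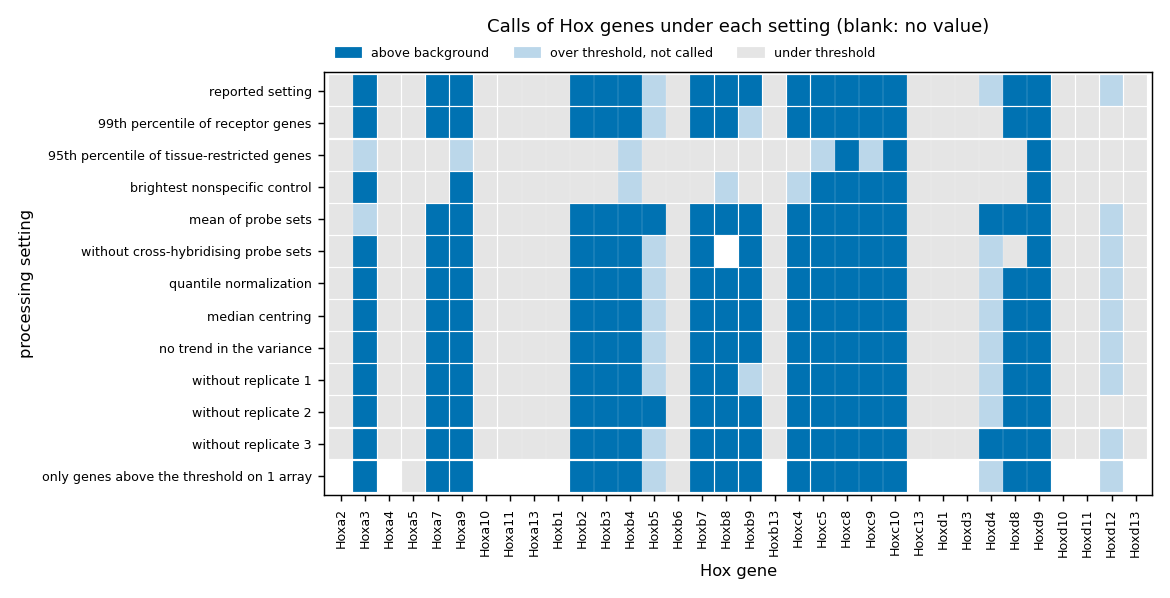
Call of each Hox gene (x axis) under the reported setting and 12 alternatives (y axis), dark where above background, light where over the threshold without passing the test, grey where under it and blank where there was no value. The columns of Hoxc8, Hoxc10 and Hoxd9 are dark throughout.

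The cells were sorted as basal epithelium, and markers of dermal mesenchyme also had high values on the arrays. Whether mesenchymal cells or the sorted cells themselves made these transcripts was not tested. As background, Hox genes are active in dermal mesenchyme too, which was not measured separately here. All 9 basal epithelial markers were above background, such as Krt5 at 11.98, 12.31 and 12.17, and so were Lgr5 (9.99, 10.04 and 10.78) and Itga6, the genes of the sort. Of 13 dermal markers 12 were above background, among them Col1a1 at 13.10, 13.03 and 12.82 and Dcn at 11.50, 11.37 and 11.41. The exception, Pdgfra, had 4.62, 4.52 and 5.52. The summed level of the list on a log2 scale was 14.57 to 14.77 for dermal and 13.45 to 13.89 for basal markers. These lists differ in length, with 13 and 9 genes, so the sums are not compared with each other. The part of mesenchymal RNA in the Hox values was not tested. In such bulk samples fewer cells of a type and less RNA per cell cannot be told apart.

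Markers of other cell types were also counted, against the 55.1% of all genes above background. Above background were 2 of 7 neural and Schwann markers (Sox10, Tubb3), 1 of 5 endothelial markers (Pecam1) and 3 of 5 leukocyte markers (Csf1r, Cd68, Fcer1g). So were 1 of 4 erythroid markers (Klf1) and 2 of 5 skeletal muscle markers (Myod1, Myh3). With tissue-restricted genes as background, Cd68 was the only one of these called, where 25.7% of all genes were. With the nonspecific controls, Cd68 and Sox10 were called, where 31.6% of all genes were. The leukocyte markers differed among themselves. Cd68, a lysosomal protein of macrophages, had 8.90, 8.54 and 9.05 (2.73 above the threshold, adjusted p = 1.25e-04), Fcer1g was 1.19 above (adjusted p = 0.00199) and Csf1r was 0.37 above (adjusted p = 0.0273). Ptprc, which encodes CD45 of all leukocytes, had 3.91, 3.91 and 4.26, under the threshold on all arrays. The summed levels of these lists were 9.24 to 10.07 for neural, 8.41 to 9.11 for endothelial, 9.58 to 9.74 for leukocyte, 8.10 to 8.999 for erythroid and 8.37 to 9.01 for muscle markers. The lists differ in length and in probe sets, so their sums are not compared with each other. The summed level of the 34 Hox genes was 12.61, 12.24 and 12.24.

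**Figure D4:**
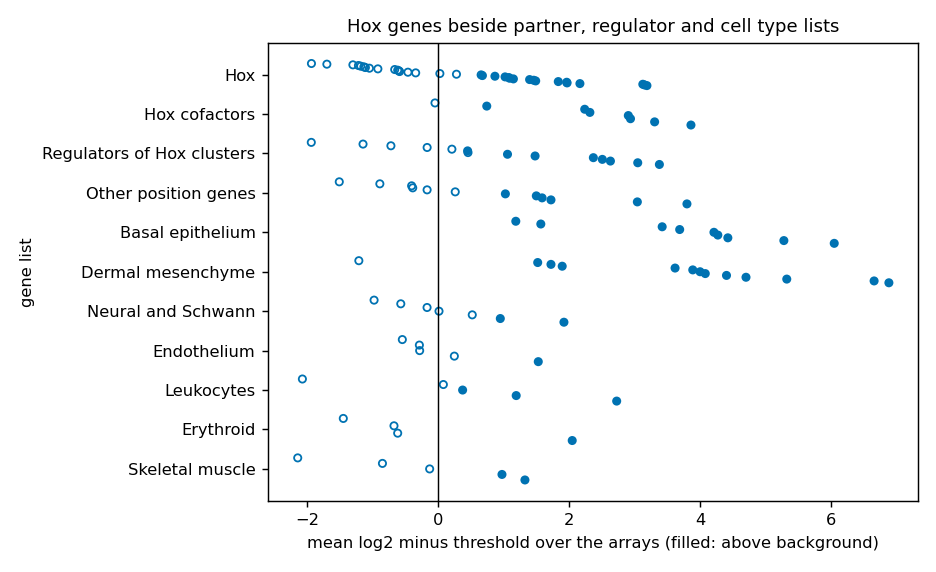
Mean log2 value minus the receptor threshold over the 3 arrays (x axis) for every gene of the Hox, partner, regulator, position and cell type lists (y axis), filled where above background. Hox genes lie on both sides of 0, while the basal and dermal markers other than Pdgfra lie above it.

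Between litters, the median of the called Hox genes was high on replicate 1 and low on replicate 3. Each gene's value on 1 array, from the probe set used, was set against the mean of the other 2 arrays. For the 16 called Hox genes the median difference was 0.43 on replicate 1, -0.14 on replicate 2 and -0.27 on replicate 3. Over all 9426 genes above background it was -0.11, -0.13 and 0.24. The Hox median minus that of all genes on replicate 3 was thus -0.51, and it was -0.21 when the probe sets of a gene were averaged. The unused probe sets of Hoxb3, Hoxb4, Hoxc5 and Hoxd8 had replicate 3 the highest, and the used ones did not. Of these unused probe sets, only that of Hoxc5 was over the threshold on all arrays. Those of Hoxa3 were divided. Replicate 1 was the highest array for 10 of 16 Hox genes and the lowest for 0. Over all genes above background it was the highest for 2075 of 9426 and the lowest for 3217 of 9426 (34.1%). With 1 array per litter this was described and not tested.

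Dermal markers had medians of the same sign as the Hox genes, and basal markers had the opposite sign on replicates 1 and 3. The median difference of the 12 called dermal markers was 0.14, -0.08 and -0.14 on replicates 1, 2 and 3, and that of the 9 basal markers was -0.43, -0.07 and 0.51. Replicate 1 was the lowest array for 0 of 12 dermal and 8 of 9 basal markers. The part of the dermal and basal cell content in the Hox differences was not tested, and litter, array, number of cells and processing cannot be told apart.

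**Figure D5:**
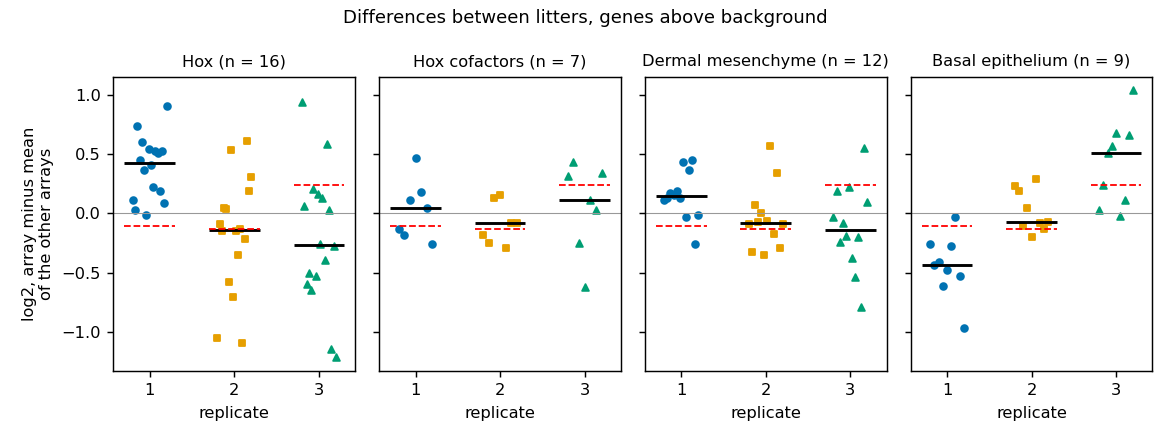
Log2 value on each replicate (x axis) minus the mean of the other 2 arrays (y axis) for called Hox genes, cofactors, dermal and basal markers, with the median of each set as a black bar and that of all genes above background as a red dashed line. The Hox median is 0.43 on replicate 1 and -0.27 on replicate 3, and the basal median is -0.43 and 0.51 there.

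The litter pattern differed among the Hox genes. For the 5 called genes of groups 9 to 13 the medians were 0.53, -0.15 and -0.59, and for the 11 of groups 1 to 8 they were 0.37, -0.13 and 0.06. Replicate 3 was the lowest array for 4 of the 5 and for 5 of the 11, against 28.8% of all genes above background. On replicate 3, Hoxd9 and Hoxc10 stood at -1.22 and -1.14 against the other arrays, and Hoxc8 and Hoxa3 at 0.58 and 0.94. On replicate 2, Hoxc8 and Hoxa3 stood at -1.09 and -1.05. A range of at least 1 log2 unit was seen in these 4 of the 16 called Hox genes (25%), against 14% of all genes above background. The SD over the arrays had a median of 0.34 for the called Hox genes and 0.26 over all called genes.

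Hox proteins bind DNA with partners of the TALE homeodomain class, Pbx, Meis and Pknox (Prep). Of 8 measured partner genes 7 were above background (87.5%, against 55.1% of all genes). Meis2 had 10.08, 9.77 and 10.04, 3.86 above the threshold (adjusted p = 3.15e-05). Pbx2 had 9.32, 9.29 and 9.62, Meis1 had 9.32, 9.11 and 8.59, and Pknox1 had 8.87, 8.98 and 9.27. Meis1 was lowest on replicate 3, and Pbx2 and Pknox1 were highest there. Pbx3 and Meis3 were above background with means of 8.42 ± 0.25 and 8.34 ± 0.05, and Pbx4 with 6.84 ± 0.14 was nearer to the threshold (0.74 above, adjusted p = 0.00273). Pknox2 had 5.97, 6.03 and 6.16 (mean 0.05 under the threshold).

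Of 14 measured genes that regulate Hox clusters, 8 were above background (57.1%, against 55.1% of all genes), and Kmt2a, Rarb and Kdm6b were not analysed here. The Polycomb genes keep silent Hox genes off, and all 6 measured, Ezh2, Eed, Suz12, Bmi1, Cbx2 and Pcgf2, were above background. Against tissue-restricted genes, Ezh2, Suz12 and Pcgf2 were called and Eed, Bmi1 and Cbx2 were not. Against the nonspecific controls, Cbx2 was called too, and Eed and Bmi1 were not. Suz12 had 8.72, 8.79 and 9.94, and Ezh2, the histone H3 methyltransferase, had 8.28, 8.58 and 9.33. Ezh2, Eed, Suz12, Bmi1 and Cbx2 were highest on replicate 3, the array where the median of all genes above background was also high, and Pcgf2 was lowest there (9.61, 9.58 and 9.26). Men1, a partner of the activating Mll methyltransferase, had 8.88, 8.68 and 8.26. Of the caudal genes, which open posterior Hox genes in the early embryo, Cdx2 was 0.45 above the threshold (adjusted p = 0.0152), and Cdx1 and Cdx4 were under it on all arrays. Cdx2 was above neither stricter threshold. Gdf11, a ligand that sets the trunk to tail transition, was 0.21 above (adjusted p = 0.156), and Gmnn was 0.45 above with an adjusted p of 0.210 (5.86, 6.39 and 7.42). Zbtb16 and Cyp26a1, which encodes a retinoic acid hydroxylase, had mean values 0.17 and 0.72 under the threshold.

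Genes that flank the clusters were above background in 6 of 10 measured cases (60%, against 55.1% of all genes), and Calcoco1 was not analysed here. Beside HoxD, Evx2, the homeobox gene next to Hoxd13, was 0.39 above the threshold (adjusted p = 0.0256), and Mtx2, at the other end, had 8.89, 8.82 and 9.28. Evx2 was above neither stricter threshold, and Mtx2 was above both. Lnpk, beyond Evx2, was 0.22 above (adjusted p = 0.187). Beside HoxA, Evx1 next to Hoxa13 was under the threshold on all arrays (5.49, 5.48 and 5.97), and Hibadh and Skap2 were above background. Near HoxC, Cbx5 and Smug1 were above background, and near HoxB, Skap1 and Ttll6 were under the threshold on all arrays. Of 4 noncoding genes within the clusters, Hoxaas2 had 6.61, 6.41 and 6.997 (0.57 above, adjusted p = 0.0294) and was above neither stricter threshold. Hoxb5os was 0.18 above (adjusted p = 0.170), and Hoxa11os and Hoxd3os1 were under the threshold on all arrays.

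Trunk and limb position is also marked by genes outside the clusters, and 6 of 12 such genes were above background (50%, against 55.1% of all genes). Tbx3, which is required for mammary placodes, had 9.99, 10.05 and 9.66, 3.799 above the threshold (adjusted p = 2.55e-05). Tbx5, the forelimb gene, had 7.93, 7.51 and 7.62 (1.59 above, adjusted p = 4.19e-04), and Pitx1, the hindlimb gene, had 7.98, 7.52 and 7.30 (1.498 above, adjusted p = 6.83e-04). Genes of both limb levels were thus above the receptor threshold in the same pools, and neither was above that of the tissue-restricted genes (0.10 over it for Tbx5, adjusted p = 0.778, and 0.016 for Pitx1, adjusted p = 0.999999). Lmx1b, the dorsal limb gene, had 8.80, 9.36 and 9.27, and Tbx15, which acts in dorsal dermis and is also in the dermal list, had 7.82, 7.77 and 7.89. Hand2, a gene of the posterior limb margin, was 1.03 above the threshold (adjusted p = 0.00112). Tbx4, the other hindlimb T-box gene, had 6.17, 5.91 and 5.71, with replicate 1 over its threshold and the others under theirs. Tbx18 was 0.26 above (adjusted p = 0.0751), and En1, Tbx2, Emx2 and Barx2 were under the threshold on all arrays.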

How the data were processed

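Expression was measured in 3 samples of 1 group. The authors deposited a log2 value for each probe set, and RMA and the affy package are named, without versions, per the submitters' processing notes. Before labelling, cDNA was amplified for 25 cycles, per the labels' protocols, which can distort levels. Whether the arrays were normalized together is not given in the sources used here; their median log2 values were 6.25, 6.25 and 6.52. No count depth exists, and the number of arrays limited the precision.

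Of 45141 probe sets, 28898 had 1 gene symbol in the platform annotation, 551 several and 15692 none, the manufacturer's controls included. Only the first were used. Log2 values minus the array threshold were fitted with limma 3.58.1 in R 4.3.3 (intercept, empirical Bayes with trend, one-sided p, Benjamini-Hochberg). The p-values leave out the error of the threshold. The fit was tested on simulated data. Python 3.11.15, numpy 2.4.6, pandas 2.3.3, scipy 1.17.1 and matplotlib 3.10.9 made the summaries and plots. A summed level is log2 of the sum of linear values over a list. Probe sets were not ranked by level against each other.

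Genes could be named if they were Hox genes or members of the cofactor, regulator, flanking, noncoding, position and cell type lists, of which some members were not analysed here. The members and lists were chosen with earlier results of these data known. The alternatives were other thresholds, probe set rules, normalizations, variance model, filter and each array left out.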

Additional observations from a re-analysis of the deposited data

How the results depend on the processing

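The calls depended most on the threshold, which was higher with tissue-restricted genes (7.69, 7.60 and 7.45) and nonspecific controls (7.36, 7.31 and 7.48) than with receptor genes. The planned background controls were not found in the table as used here, so that setting was not run, and the nonspecific controls were chosen after seeing the data. With tissue-restricted genes the counts above background were 3 Hox genes in all, 0 in HoxA, 0 in HoxB, 2 in HoxC and 1 in HoxD, and 0, 1 and 2 in paralogue groups 1 to 3, 4 to 8 and 9 to 13. At an unadjusted p under 0.05, limma gave 7 in all, 2 in HoxA, 0 in HoxB and 1 in groups 1 to 3. With the controls they were 7 in all, 0 in HoxB (0 also unadjusted), 1 in HoxD, and 1 and 2 in groups 1 to 3 and 4 to 8. Without probe sets marked for cross-hybridisation, HoxD had 1. With tissue-restricted genes the mean minus the threshold turned negative for Hoxa7 (-0.46), Hoxb2 (-0.62), Hoxb3 (-0.39), Hoxb7 (-0.33), Hoxb8 (-0.086), Hoxb9 (-0.81), Hoxc4 (-0.024) and Hoxd8 (-0.40). With the controls it did for Hoxa7 (-0.26), Hoxb2 (-0.42), Hoxb3 (-0.19), Hoxb7 (-0.13), Hoxb9 (-0.61) and Hoxd8 (-0.20), and without marked probe sets for Hoxd8 (-0.12). The Hox median minus that of all genes above background became 0.46 on replicate 2 and -1.42 on replicate 3 with tissue-restricted genes, over 3 Hox genes, and -0.21 on replicate 3 with the mean of probe sets, against -0.51 as reported. In the 10 settings with a receptor threshold, 12 Hox genes were called in each. Median centring gives the same values by construction. Leaving out an array removed the call of Hoxb9 and added those of Hoxb5 and Hoxd4. These calls leaned on the variance shared over all genes, because few values per gene remained. The mean of probe sets, with a threshold made in the same way, removed the call of Hoxa3 and added Hoxb5 (0.87) and Hoxd4 (0.50). Hoxb5 and Hoxd4 had 1 probe set each, so their values stayed the same and the threshold was lower. No paired analysis was possible because there was 1 group.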
